A study of Homo sapiens with 9 samples.

Results

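The m6A-bound and unbound RNA of control cells was compared in PC9 cells, an established lung adenocarcinoma line, transfected with the control siRNA (siNC). The series holds 9 arrays from 3 groups of 3 biological replicates, siNC, siALKBH5#1 and siALKBH5#3, and each group received 15 nM of siRNA and was collected 96 h later. Both knockdown siRNAs target ALKBH5, an m6A demethylase. Unfragmented total RNA was split with an anti-m6A antibody, and the bound (IP) and unbound (Sup) RNA of a sample were labelled with Cy5 and Cy3 and hybridized to the same array, so that each spot gave a ratio within 1 sample. The 3 siNC arrays of the 9 were described, with the 6 knockdown arrays used only for comparison. Of 60541 RNAs on the array, each represented by 1 probe name, 45082 (74.5%) had a Sup signal well above background on all 3 siNC arrays, and these were the RNAs studied. Different probes can read transcripts of 1 gene. Because the dyes were not swapped, dye and fraction cannot be told apart in any IP to Sup ratio, and the small number of arrays limits the precision. Markers of lung epithelium, fibroblasts, leukocytes and endothelium, and the ALKBH5 transcript itself, could not be looked up by gene name among the probes, so the labels were not checked through them.

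Cells mark many of their transcripts by adding a methyl group to adenosine (N6-methyladenosine, m6A). An enzyme complex built around METTL3 and METTL14 adds the group, ALKBH5 and FTO can take it off, and proteins such as those with a YTH domain bind it and alter how long the RNA lasts and how well it is translated. In unfragmented RNA, 1 modified adenosine anywhere in a molecule can bring the whole molecule into the IP, so the measurement concerns the share of molecules bound and not the position or number of sites.

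A small majority of the RNAs detected in the unbound fraction were also detected in the bound fraction. The IP signal was well above background on all 3 siNC arrays for 23385 of 45082 RNAs (51.9%), on 2 arrays for 2984, on 1 array for 4412, and on none for 14301 (31.7%). By array, the share with an IP signal was 54.2% in siNC replicate 1, 57.4% in replicate 2 and 67.1% in replicate 3 (mean 59.5% ± 6.72, SD, n = 3). Replicate 3 stood apart in IP brightness. The median IP intensity of the RNAs studied was 11.4, 13.9 and 29.6 in replicates 1, 2 and 3, whereas the median Sup intensity was 44.4, 34.4 and 43.3. The opposite pattern, bound RNA without unbound RNA, was rare. An IP signal on all 3 arrays with Sup well above background on none was found for 10 RNAs of the array, all of the ASHG19AP1 class, while 9813 RNAs were detected in neither fraction on any siNC array.

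The methylation level, IP/(IP+Sup) after scaling by spike-in RNA that had been added in equal amount to both fractions, had a median of 40.7% over the RNAs studied. By array the median was 43.3%, 42.1% and 39.8% (41.7% ± 1.75, SD, n = 3). The middle of the distribution was broad, with quartiles at 29.9% and 53.4%, and its lower end was fuller than its upper end. An IP signal was not required of these RNAs, so the lower end includes levels that were not measured. IP signals at or below 0 count as a level of 0, for 3150, 2514 and 1311 RNAs in siNC replicates 1, 2 and 3. Levels above 80% were found for 1.55% of RNAs and levels under 20% for 10.98%, and the 5th and 95th percentiles were 12.4% and 71.9%. RNAs with an IP signal on all 3 arrays had a median level of 49.8%. Those with none had a median of 26.5%, which rests on IP signals within the background and is neither a measured level nor an upper limit.

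**Figure D1:**
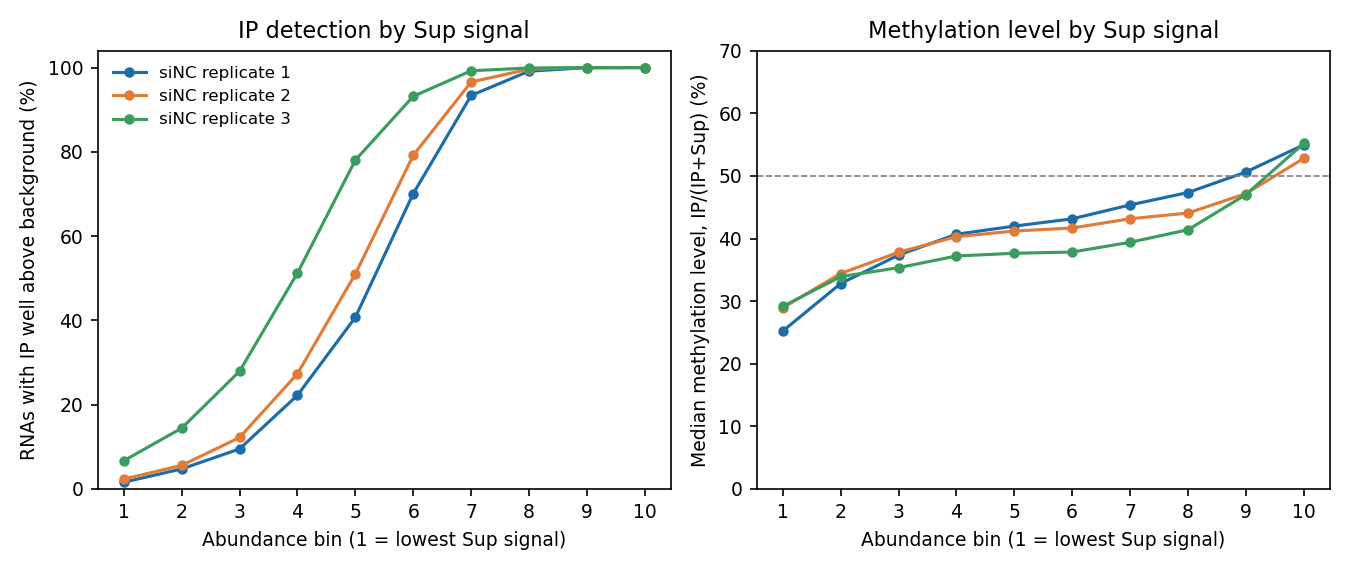
Share of RNAs with an IP signal well above background (left, percent) and median methylation level (right, percent) in 10 equal bins of Sup signal, from the lowest (1) to the highest (10), with 1 line for each siNC array. Over the 3 arrays together, detection in all 3 rose from 0.954% to 100% and the median level from 25.6% to 54.7% across the bins; the dashed line at 50% marks equal amounts in both fractions.

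To find RNAs that were unequally divided between the fractions, log2(IP/Sup) was tested against 0 with limma in 23262 of the 23385 RNAs well above background in both fractions on all 3 siNC arrays, those with at least 2 values left after outlier spots were removed. At an adjusted p under 0.05, 5648 RNAs (24.3%) were higher in IP and 5519 (23.7%) were higher in Sup, and 12095 (52.0%) were not called. An IP signal was required of the tested RNAs, so dim RNAs with a low ratio were not among them; the part of this in the split was not tested. In the lowest of 10 bins of Sup signal among the tested RNAs, 51.1% were higher in IP and 0.0% higher in Sup, with a median level of 62.8%. In the fifth bin the shares were 16.4% and 37.6%, and in the highest 36.8% and 9.11%. The Sup signal is the denominator of the ratio, and with bins of IP+Sup the lowest bin held 28.9% higher in IP and 7.31% higher in Sup, with a median level of 55.3%. A log2 ratio above 1 was reached by 3935 of the IP-higher RNAs and one under −1 by 2598 Sup-higher RNAs. The smallest called ratio was 0.56 on the log2 scale, and the median standard error was 0.23. Computed from the mean log2 ratio, levels of the tested RNAs ran from 4.25% to 93.8%, a measure other than the mean of the array levels used for single RNAs. The arrays ranked the RNAs alike, with Pearson's r of log2(IP/Sup) across RNAs of 0.923 for replicates 1 and 2, 0.881 for replicates 2 and 3 and 0.781 for replicates 1 and 3; RNAs are not independent replicates, and no p is given.

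The position of 0, and with it the split into bound and unbound RNAs, rests on 14 spike-in probes of 102. Before scaling, their mean log2(IP/Sup) was −1.76, −0.97 and 0.04 in siNC replicates 1, 2 and 3. After scaling, they still ranged from 33.6% to 61.1% in IP/(IP+Sup), computed from the mean log2 ratio over arrays, although each had the same input in both fractions. Of the tested RNAs, 6080 (26.1%) lay above the highest spike-in probe, 2705 (11.6%) below the lowest and 14477 (62.2%) within their range. Among the calls, 5510 of the 5648 IP-higher RNAs were above that range, but 2700 of the 5519 Sup-higher RNAs were below it, so many Sup-higher RNAs had ratios no lower than those of a spike-in probe. Moving the scale by 1 standard error of the spike-in probes in either direction, an alternative chosen after seeing the data, kept 4638 (82.1%) of the IP-higher and 4105 (74.4%) of the Sup-higher calls. IP-higher RNAs made up 50.6% of all calls, and 39.4% or 62.4% with the scale raised or lowered in this way, 32.9% with the median of the spike-in probes, 58.8% with the spike-in probes of each array alone, 52.5% with each array centred on its median, and 7.93% without scaling. The corresponding shifts of the median log2 ratio were −0.15 and 0.15 for the moved scales, −0.31, 0.11, 0.02 and −0.90. Without siNC replicate 2, the counts were 3436 IP-higher and 1979 Sup-higher RNAs.

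**Figure D2:**
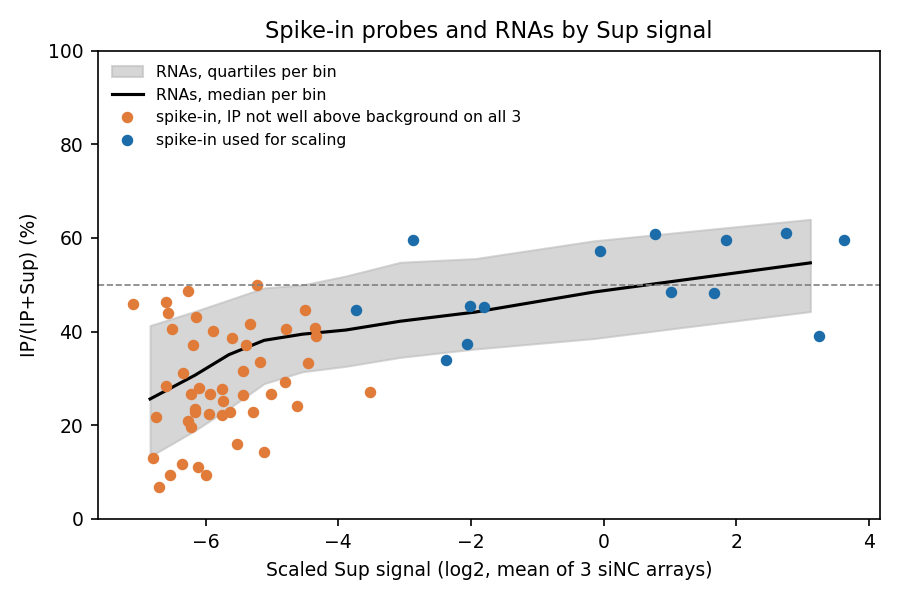
IP/(IP+Sup) in percent against the scaled Sup signal (log2, mean of 3 siNC arrays) for spike-in probes (points) and for the RNAs studied (line, median of each of 10 bins; band, quartiles). The 14 blue points, used for scaling, lie between 33.9% and 61.1%, and the orange points are spike-in probes detected in Sup but without an IP signal on all 3 arrays.

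Gene names could be given to 50 probes with 10 spots each, and in siNC cells these genes lay mostly on the bound side. All 50 were matched through a RefSeq accession to the gene table of GRCh38.p14. Of them, 47 had a Sup signal on all 3 siNC arrays and 46 were tested; 29 (63.0%) were higher in IP, against 24.3% of all tested RNAs, 2 (4.35%) were higher in Sup, against 23.7%, and 15 were not called. Their median level was 68.1%, against 49.8% for all RNAs with an IP signal on all 3 arrays. The 50 genes are those that the array repeats in 10 spots and not a sample of the transcriptome, so the counts describe them alone. Within the same bin of Sup signal they still had higher levels than the other RNAs. The named probes have names starting with A_2, and those of the other RNAs start with ASHG. A difference of genes and one of probe design therefore cannot be told apart. In the bin with rank 8 the median of 14 named genes was 78.8% against 44.1% for the others, in the next bin 61.8% for 14 genes against 48.4%, and in the highest bin 66.0% for 6 genes against 54.7%.

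Of the genes of transcription and chromatin, 7 of 8 were higher in IP and none was higher in Sup, with a median level of 84.6%. The roles were assigned from general knowledge after the gene names, and a few values, had been seen. The counts and medians by role describe these genes only. They stand against 24.3% IP-higher and 23.7% Sup-higher among all tested RNAs and 63.0% and 4.35% among all named genes tested, and with 11 genes or fewer tested in each role no difference between roles is read from them. BAZ1A, a subunit of ISWI chromatin remodelling complexes, had the highest level of all named genes, 91.5%, 88.6% and 82.8% in siNC replicates 1, 2 and 3 (87.6% ± 4.44, SD, n = 3). Its Sup intensities were 128, 95.6 and 159 and its IP intensities 407, 380 and 791. The log2 ratio of BAZ1A was 2.89 with an adjusted p of 0.00153 in limma, higher in IP on 3 of 3 arrays. RPAP3, an HSP90 co-chaperone that takes part in the assembly of RNA polymerase II, reached 87.0% ± 6.11 (SD, n = 3), with 93.0%, 87.2% and 80.8%. ATAD2, a bromodomain ATPase, had 86.4% ± 7.74, and SMARCAD1, a chromatin remodeller that acts in DNA end resection, 85.9% ± 4.56 (SD, n = 3). ZZZ3, a subunit of the ATAC histone acetyltransferase complex, had 83.2% ± 8.03. The zinc finger gene ZNF195 had 81.0% ± 9.47 and was the 1 member of the list of zinc finger genes that could be named. POLR2A, the largest subunit of RNA polymerase II, was the exception of this group. Its level was 35.7%, 43.8% and 43.9% (41.1% ± 4.72, SD, n = 3), under 50% on each array, and limma gave an adjusted p of 0.0799.

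Of the DNA replication and repair genes, 8 of 11 were higher in IP, 1 was higher in Sup and 2 were not called, with a median level of 68.5%. WRN, a RecQ helicase mutated in Werner syndrome, was the highest at 88.8%, 83.4% and 77.2% (83.1% ± 5.81, SD, n = 3). RAD54B, of homologous recombination, had 79.4% ± 7.74 (SD, n = 3). BRCA1, of the same pathway, was among the more variable genes, with 88.0%, 79.5% and 66.2%. EXO1, a DNA exonuclease, had 80.5%, 68.5% and 56.4%. ABRAXAS1, of the BRCA1-A complex, had 67.8% ± 10.6, and SMC6, a structural maintenance of chromosomes protein, 66.5% ± 12.4 (SD, n = 3). The lower end of the group was held by DSCC1 and PRIM1. DSCC1, a part of a clamp loader that acts in sister chromatid cohesion, had 47.1%, 42.9% and 35.5% (41.9% ± 5.86, SD, n = 3) and was not called (limma adjusted p = 0.111). PRIM1, the catalytic subunit of the DNA primase, was higher in Sup, with 43.8%, 36.1% and 35.4% (38.4% ± 4.64, SD, n = 3), a log2 ratio of −0.68 and a limma adjusted p of 0.0344. All 3 PRIM1 values lie within the range of the spike-in probes.

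Of 7 mitotic genes tested, 3 were higher in IP, 1 was higher in Sup and 3 were not called, with a median of 61.2%. SPDL1, which brings dynein to kinetochores, and CENPE, a kinetochore kinesin, had 70.7% ± 10.8 and 69.8% ± 11.1 (SD, n = 3), and KIF20A, a kinesin of cytokinesis, had 64.3% ± 9.88. ITGB3BP, a centromere protein also called CENP-R, had the lowest level of all tested named genes and was the only one below the spike-in range. It measured 28.3%, 21.3% and 16.3% (22.0% ± 6.07, SD, n = 3), with Sup intensities of 734, 696 and 777 against IP intensities of 85.5, 96.2 and 155. Its log2 ratio of −1.86 had a limma adjusted p of 0.00256 and was below 0 on 3 of 3 arrays. CCNA2, the cyclin of S phase and G2, had the smallest spread of the tested named genes, with 45.2%, 47.7% and 48.0% (47.0% ± 1.52, SD, n = 3), and was not called (limma adjusted p = 0.484). PIMREG, a mitotic regulator, had 43.7% ± 6.01 and was not called.

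Genes of the extracellular matrix and of secreted proteins included 3 of 4 higher in IP, with a median of 69.3%. LOXL2 and LOX, both lysyl oxidases that cross-link collagen, differed, LOXL2 with 75.4% ± 12.5 and LOX with 49.8% ± 8.94 (SD, n = 3). The difference between the pair was not tested. SPP1, which encodes osteopontin, had 66.4% ± 4.56 (SD, n = 3) and Sup intensities from 5601 to 19705. Among the remaining genes, grouped as other, 6 of 11 were higher in IP, with a median of 65.5%. NOC3L, a nucleolar factor of ribosome biogenesis, had 84.8% ± 7.22, PPIP5K2, an inositol pyrophosphate kinase, 84.4% ± 8.53, and EIF5B, the GTPase that joins the ribosomal subunits at the start codon, 83.0% ± 10.2 (SD, n = 3). EIF5B was the 1 named member of the list of initiation and elongation factors. NMI, an interferon-induced protein, had 65.5% ± 12.5.

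Several of the 50 genes belong to tissues other than lung. Of 5 genes known from lymphoid and blood cells, 3 were tested and 1 of these was higher in IP. The gene called, which is not reported singly here, had a bright Sup signal, so not all of the 5 were absent or dim. ZAP70 and CD69 had no Sup signal well above background on any siNC array, as had CFTR, the epithelial chloride channel. LMO2, a transcription cofactor of blood formation, was detected with Sup intensities of 53.5, 42.7 and 63.5 and a level of 42.4% ± 7.47 (SD, n = 3), and was not called. TCF7, a transcription factor of T cells, had Sup intensities of 54.0, 41.4 and 70.7 and a level of 60.8% ± 8.76, and was not called either. Of 3 liver genes, CPS1, the first enzyme of the urea cycle, was higher in IP with 64.7% ± 10.5, and SAA4, a serum amyloid protein, was not called at 52.0% ± 5.62. SERPIND1, which encodes heparin cofactor II, was the 1 named RNA with Sup on all 3 arrays and IP well above background on none. Its IP intensities were 3.79, 4.87 and 10.5 against Sup intensities of 47.6, 28.5 and 31.2, which limits its level to 36.9% or less.

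The levels of the named genes varied between the samples as follows. The 10 spots of a named gene differed by a median SD of 0.17 in log2(IP/Sup) within 1 hybridization. The 3 arrays, which are separate samples, differed by a median SD of 0.62. With each array centred, which removes a shift common to its RNAs, the median SD between arrays was 0.46. The level was highest in siNC replicate 1 for 43 of the 46 tested genes and lowest in replicate 3 for 41. CCNA2 and POLR2A were among the 3 genes highest in replicate 3. A level above 50% on each array was found for 35 genes and under 50% on each array for 7. The side of 50% held under each scaling for 35 of the 46 genes and under each scaling but the unscaled setting for 43; SAA4, UCHL5 and LOX changed sides under other scalings. Levels were higher for longer genes, with Spearman's r of 0.493 between level and gene span (n = 46 genes, introns included). This is a description across genes that share 3 arrays.

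**Figure D3:**
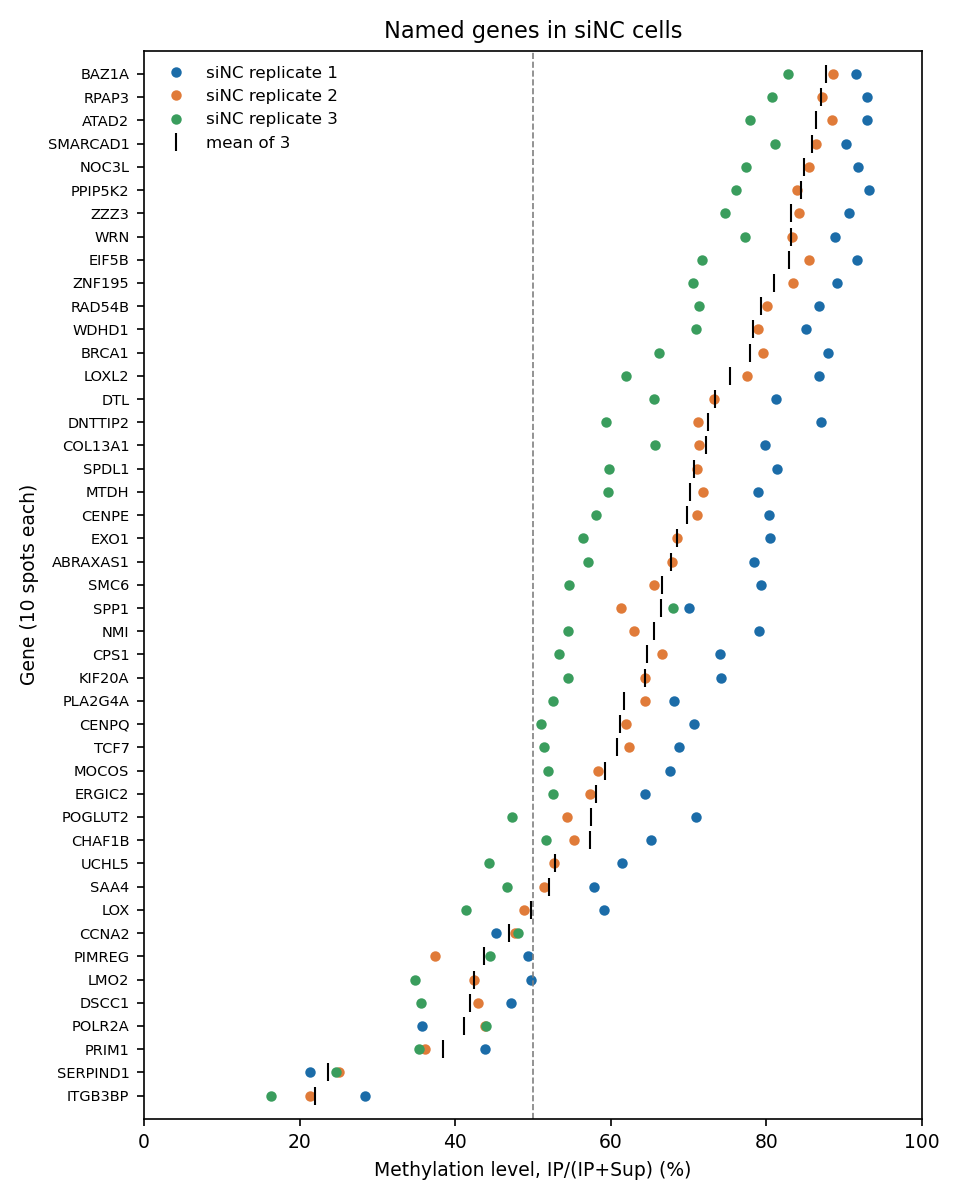
Methylation level (percent) of 45 of the 47 named genes with a Sup signal on all 3 siNC arrays, ordered by mean level. Each coloured point is 1 siNC array (10 spots averaged), the black bar is the mean, and the dashed line marks 50%; BAZ1A (87.6%) is at the top and ITGB3BP (22.0%) at the bottom, and replicate 1 is the highest point for most genes.

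Control probes for housekeeping genes differed within a gene. The Human-GAPDH_3 probe, for the glycolytic enzyme GAPDH, gave 39.6%, 57.0% and 66.7% (54.4% ± 13.7, SD, n = 3) and Human-GAPDH_5 gave 26.1%, 34.2% and 45.6% (35.3% ± 9.82). For PGK1, also of glycolysis, the Human-PGK1_3 probe gave 45.9%, 50.9% and 63.1% (53.3% ± 8.87, SD, n = 3) and Human-PGK1_5 gave 29.7%, 30.9% and 33.0% (31.2% ± 1.64). The human probe whose name ends in 3 was higher on each of the 3 arrays for both genes. Of the probes named for rodent genes, only Mouse-PGK1 had an IP signal at both ends, with 32.0% ± 2.49 for Mouse-PGK1_5 and 30.8% ± 3.07 for Mouse-PGK1_3 (SD, n = 3), a difference within their spread. Rat-GAPDH_3 and Rat-PGK1_3 were dim in Sup and had no IP signal well above background on any array, so the ends cannot be compared there. Mouse-GAPDH_3 had no such IP signal either, but its Sup intensities were 111, 88.0 and 98.3, against 49.5, 42.1 and 50.6 for Mouse-GAPDH_5. Its IP intensities were 5.92, 5.02 and 7.95, against 11.2, 16.9 and 31.8. The mouse GAPDH probe ending in 3 was therefore lower in level on each array, opposite to the human pairs. PC9 is a human line, so what the rodent probes read is not known, and they are no test of the human pairs. The human probes ending in 3 were also the brighter of each pair, with Sup intensities of 21182 to 27151 against 4648 to 13730 for GAPDH. Reading the names as the 3′ and 5′ end follows the name alone.

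Among the RNAs without a gene name, the ends of the range lay further out. With Sup at or above the median on all 3 arrays, 9285 RNAs were called, of which 406 had a level above 80% and 217 a level under 20%. The highest levels were those of ASHG19AP1B12693908611, with 96.1%, 93.4% and 90.8% (93.5% ± 2.68, SD, n = 3), and ASHG19AP1B11849137611, with 92.9% ± 3.76. The lowest were those of ASHG38SM110001182711, with 4.74%, 4.78% and 3.37% (4.30% ± 0.801, SD, n = 3), and ASHG38SM110002907611, with 5.56% ± 0.720. These low RNAs were not dim. Sup intensities of ASHG38SM110001182711 were 3425, 2925 and 3731, and its IP signal was well above background on each array. A further 156 RNAs had no IP signal on any array although their Sup signal was at or above the median, which limits their levels to between 7.75% and 33.2% at most, and to under 20% for 13 of them.

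Detection in IP rose steeply with abundance. Across 10 equal bins of Sup signal, IP was well above background on all 3 arrays for 0.954% of RNAs in the lowest bin, 34.1% in the fifth, 64.3% in the sixth, 92.1% in the seventh and 100% in the highest. The median level rose as well, from 25.6% in the lowest bin to 39.4% in the fifth and 54.7% in the highest. Across 45057 RNAs, Spearman's r of level and Sup signal was 0.411, and it was 0.279, 0.314 and 0.422 within siNC replicates 1, 2 and 3. The Sup signal is part of the level, so the Sup signal of the other 2 arrays was used too, which gave 0.358, 0.314 and 0.359. The relation was alike in the classes, with 0.399 in ASHG19AP1, 0.399 in ASHGV4 and 0.391 in ASHG38SM1. The RNAs are not independent replicates, and no p is given.

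The rise with abundance depended on the processing, and a rise with Sup signal was also found across spike-in probes, most of them without an IP signal. Of the spike-in probes, 62 had a Sup signal on all 3 siNC arrays, and among them Spearman's r of level and Sup signal was 0.529; it was 0.455 among the 14 used for scaling. Of these 62, 14 (22.6%) had an IP signal on all 3 arrays and 39 on none. Spike-in RNA was added in equal amount to both fractions. The median Sup intensity of the 62 probes was 17.9, whereas probes named Negative reached 114. Whether the dim ones read spike-in RNA or background was not tested, and the 14 used for scaling are few. The part of such a rise in that of the RNAs was not tested. Among RNAs detected in IP on all 3 arrays, the coefficient was −0.0558 (n = 23360). Median spot signals without background subtraction gave −0.583, median spot signals with normexp and loess but no spike-in scaling −0.161, the authors' deposited levels −0.25 and dye-normalized signals 0.083. The direction of the relation therefore could not be settled from these arrays.

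**Figure D4:**
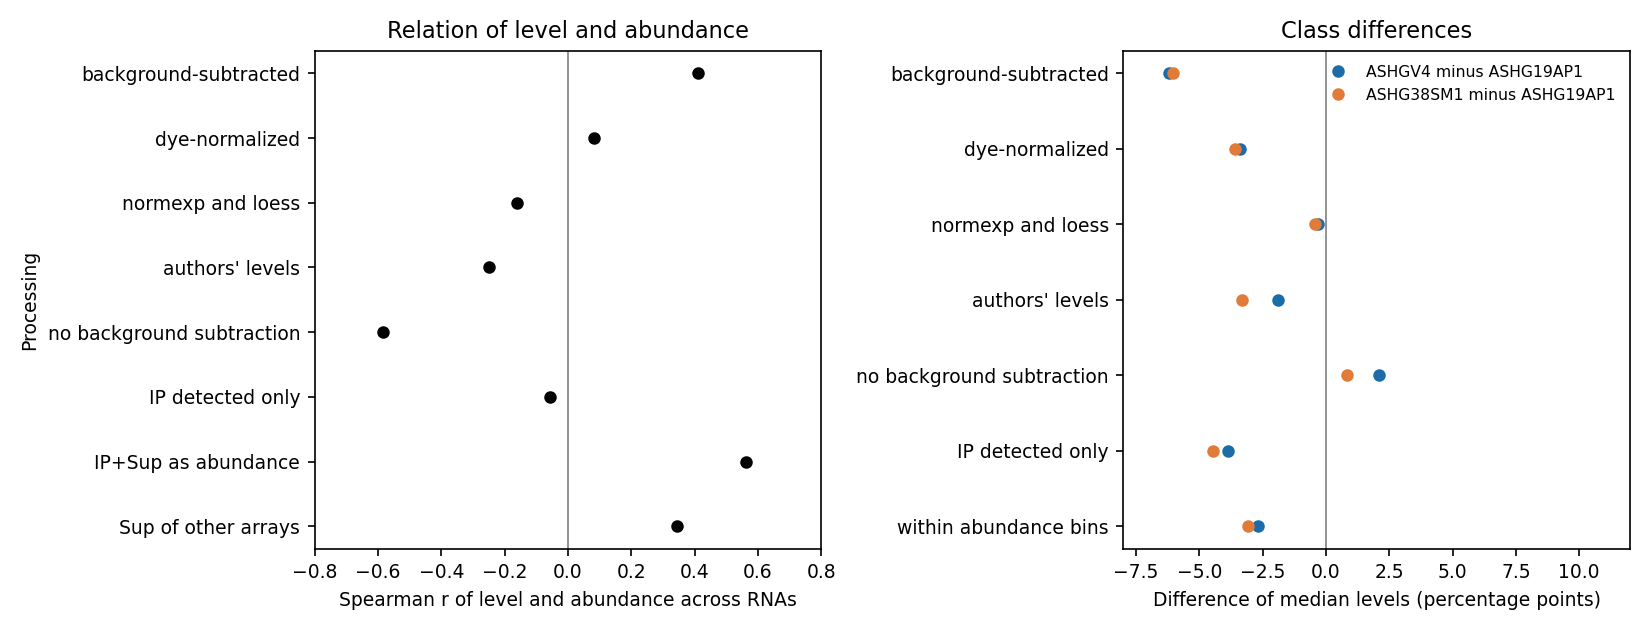
Spearman's r of level and abundance across RNAs (left) and difference of median levels from ASHG19AP1 in percentage points (right) in siNC cells, with 1 line for each way of processing. The correlation lies between −0.583 and 0.564, and the class differences are below 0 except for signals without background subtraction, where they are 2.11 for ASHGV4 and 0.818 for ASHG38SM1.

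The probe-name classes ASHGV4 and ASHG38SM1 were less often detected and had lower levels than ASHG19AP1. The array holds 50802 ASHG19AP1, 5876 ASHGV4 and 3813 ASHG38SM1 RNAs. Which transcripts each class stands for is not given in the sources used here. Of these, 39886 (78.5%), 3040 (51.7%) and 2109 (55.3%) had a Sup signal on all 3 siNC arrays. An IP signal on all 3 arrays was found for 54.2% of the ASHG19AP1 RNAs studied, 32.6% of ASHGV4 and 34.0% of ASHG38SM1, while 11787, 1521 and 992 RNAs of the classes had none on any array. By array, detection in ASHGV4 was 34.3%, 38.6% and 48.6%, against 56.5%, 59.6% and 69.3% in ASHG19AP1. For both ASHGV4 and ASHG38SM1, the array with the highest detection was below the lowest of ASHG19AP1.

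Median levels followed the same order. They were 44.1%, 42.7% and 40.4% in ASHG19AP1, 36.6%, 37.4% and 35.2% in ASHGV4, and 37.3%, 37.5% and 34.6% in ASHG38SM1 for siNC replicates 1, 2 and 3. The difference from ASHG19AP1 was −6.02 ± 1.25 percentage points for ASHGV4 and −5.93 ± 0.776 for ASHG38SM1 (SD, n = 3), below 0 on 3 of 3 arrays. An exact two-sided sign-flip permutation test over the 3 arrays gave p = 0.25 for each, the smallest p that 3 arrays allow. ASHGV4 and ASHG38SM1 differed from each other by less than the spread between arrays. Both classes were also dimmer, with a median Sup intensity of 25.1, 18.1 and 20.2 in ASHGV4 and 28.1, 21.8 and 24.9 in ASHG38SM1, against 47.9, 37.3 and 48.1 in ASHG19AP1.

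Within bins of equal Sup signal the class differences were smaller. For detection on all 3 arrays, the mean difference over 10 bins was −4.45 percentage points for ASHGV4, below 0 in 7 bins, and −5.91 for ASHG38SM1, below 0 in 9 bins, against −21.3 ± 0.762 and −18.8 ± 0.507 (SD, n = 3) for detection per array over all RNAs studied. This mean includes bins where nearly no or nearly every RNA was detected. In the fifth bin detection was 35.8% in ASHG19AP1 against 21.3% in ASHGV4 and 21.8% in ASHG38SM1, and in the sixth 66.0% against 52.4% and 48.3%. For the level averaged over 10 bins, ASHGV4 differed from ASHG19AP1 by −2.69 percentage points and ASHG38SM1 by −3.07, each below 0 in 9 of 10 bins. In the highest bin the median was 56.6% in ASHGV4 and 56.0% in ASHG38SM1 against 54.6% in ASHG19AP1, but on siNC replicate 1 ASHG38SM1 was lower there, with 53.8% against 54.9%. With bins of IP+Sup the differences were smaller still. The level differed by −1.66 percentage points for ASHGV4, below 0 in 8 of 10 bins, and by −2.47 for ASHG38SM1, below 0 in all 10, and detection by −1.77 and −2.90, each below 0 in 5 of 10 bins. Median spot signals without background subtraction turned the order over all RNAs studied, with differences of 2.11 and 0.818.

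Calls in the limma test were counted by class. In ASHG19AP1, 24.7% of 21529 tested RNAs were higher in IP and 23.3% higher in Sup. In ASHGV4 the shares were 19.4% and 29.2% of 978 RNAs, and in ASHG38SM1 14.4% and 29.2% of 709. The differences between these shares were not tested. At the high end, 394 of the 406 bright RNAs above 80% were ASHG19AP1, 7 were ASHGV4 and 5 were ASHG38SM1. At the low end, 181 of the 217 bright RNAs under 20% were ASHG19AP1, 15 were ASHGV4 and 21 were ASHG38SM1. Among all 9285 bright called RNAs, the classes held 8624, 389 and 272.

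**Figure D5:**
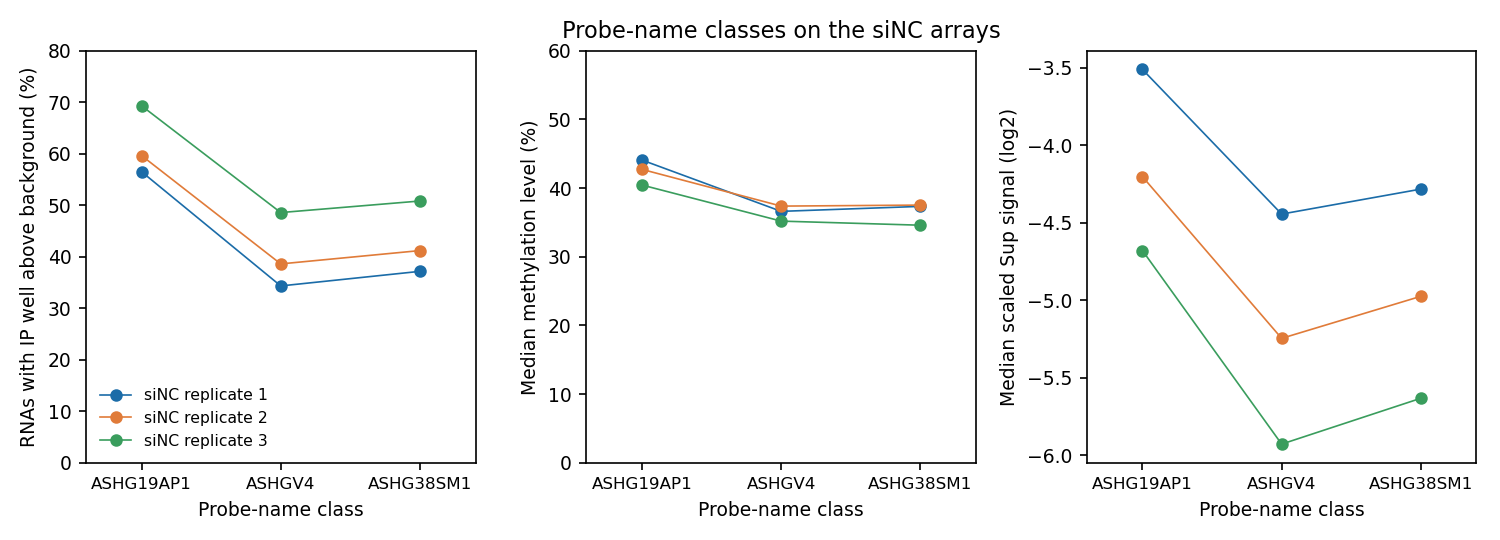
IP detection (left, percent of RNAs), median methylation level (middle, percent) and median scaled Sup signal (right, log2) of the probe-name classes ASHG19AP1, ASHGV4 and ASHG38SM1. Each line is 1 siNC array; on each of them ASHG19AP1 is above both other classes in all 3 measures.

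The siNC arrays were set beside the 6 knockdown arrays, over the same RNAs, to see where control cells differ from the rest of the series. IP detection was 59.5% ± 6.72 in siNC (SD, n = 3) and 61.6% ± 8.35 in knockdown cells (SD, n = 6). The median level was 41.7% ± 1.75 against 46.4% ± 6.11, a difference of −4.69 percentage points (exact two-sided permutation p = 0.262, adjusted p = 0.387 over 5 measures). The correlation of level and Sup signal was 0.338 ± 0.0744 against 0.205 ± 0.189 (exact permutation p = 0.310, adjusted p = 0.387). The class differences from ASHG19AP1 lay further below 0 in siNC, with a siNC minus knockdown value of −2.08 percentage points for ASHGV4 and −1.43 for ASHG38SM1, and an exact permutation p of 0.119 and an adjusted p of 0.298 for both measures. No measure passed the threshold, and the smallest p of the 84 splits is 0.0119. The RNAs had been chosen by their Sup signal on the siNC arrays alone. With Sup well above background required on all 9 arrays, the median level differed by −4.33 percentage points and the correlation by 0.139. The other differences were then −1.69 for ASHGV4, −1.59 for ASHG38SM1 and −2.13 for IP detection. Exact permutation adjusted p ran from 0.387 to 0.75 under this filter.

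Of these 5 measures, 4 passed the threshold only when 1 knockdown array, siALKBH5#1 replicate 3, was left out. These 4 are computed from the same levels and are not separate results. Each of the 9 arrays was left out in turn, so the leave-out does not replace the test over all of them. The median level of siALKBH5#1 replicate 3 was 35.5%, below each siNC array, whereas the other knockdown arrays had 45.2% to 52.8%, above each siNC array. Without it, the difference from siNC was −6.88 percentage points for the median level, 0.200 for the correlation, −2.62 for ASHGV4 and −1.86 for ASHG38SM1, each with an exact permutation adjusted p of 0.0446. siALKBH5#1 replicate 3 also had 1419 RNA spots marked as outliers, against 112 to 645 on the other 8 arrays, and Sup well above background for 86.5% of RNAs. The part of these features in the result was not tested. IP detection, with −2.08 percentage points and an exact permutation adjusted p of 0.726, did not pass the threshold whichever array was left out, and its direction turned without siALKBH5#3 replicate 2 (0.669) or siNC replicate 1 (0.612). siALKBH5#1 replicate 1 was the only array of a separate scan, and without it the median level differed by −3.43 percentage points (exact permutation adjusted p = 0.580).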

How the data were processed

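The deposited scanner files hold the intensity of each spot in both dyes, read by the authors with Agilent Feature Extraction 11.0.1.1 (per the submitters' notes) and not yet normalized between arrays. The authors' table of the series gives the methylation level as a fraction after spike-in scaling, with medians of 0.517, 0.521 and 0.517 in siNC over 30656 RNAs; how its RNAs were filtered is not given in the sources used here, and it was used as an alternative.

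Background-subtracted Cy5 (IP) and Cy3 (Sup) intensities were used. Spots with an outlier mark (362, 443 and 423 of 60991 RNA spots in siNC) were left out, no spot was saturated, and spots of 1 probe were averaged. A probe was well above background on an array if at least a share of 0.5 of its spots was. Each dye of an array was divided by its average (log2) over those spike-in probes that were well above background in both fractions of all 3 siNC arrays. Levels took IP signals below 0 as 0. The limma test (lmFit and eBayes, Benjamini-Hochberg) needed at least 2 values. It was checked on simulated data, with a simulation that was redesigned once because its first form recovered none of the set changes; small set ratios were recovered well in 1 of 2 simulated settings and rarely in the other, so an RNA not called may still be unequally divided. The pairing of the fractions on 1 array is part of the ratio. The siNC arrays share 1 scan, so no batch could be separated among them. Where IP was well above background on none of the arrays, the limit of a level takes the higher of the IP signal and the lowest IP signal well above background on that array.

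Named genes were, among probes that could be given a gene, the 8 highest and 8 lowest called levels with Sup at or above the median, the 6 highest and 6 lowest levels of genes with 10 spots, members of gene lists, and those without an IP signal (SERPIND1 alone); of probes without a gene, 2 at each end are given; genes named besides these were chosen after their values were seen. Of the lists and cell type markers set out for this work, only zinc finger genes, initiation and elongation factors, and the reference and glycolysis genes GAPDH and PGK1 had a probe that could be named; ribosomal, histone, m6A enzyme and other lists could not be described. Some named genes are counted but not reported singly here. The RNAs studied and the lists were chosen with earlier results of these data known. R 4.3.3, limma 3.58.1, data.table version 1.17.8, python 3.11.15, numpy 2.4.6, pandas 2.3.3, scipy 1.17.1 and matplotlib 3.10.9 were used. Alternatives were other signals (median spot signals where the background was not subtracted or was corrected with normexp, since no mean signal was used), scalings, filters, tests and leaving out each array.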

Additional observations from a re-analysis of the deposited data

Results flagged for a closer look

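Negative control probes carried a signal in the Sup channel. Of 60 probes named Negative, 11 (18.3%) had Sup well above background on all 3 siNC arrays and 2 (3.33%) had IP well above background on all 3. They drew attention because such probes are designed to find no RNA and no comparison used them. Their median Sup intensity was 2.19, and the highest was 114. Structural negative spots behaved differently, with Sup well above background on 0, 0 and 0 of 308 spots and IP on 0, 1 and 5 in siNC replicates 1, 2 and 3. The part of such a background in the detection of dim RNAs was not tested.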

How the results depend on the processing

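The share of RNAs with an IP signal (51.9%) was 63.6% with positive and significant signals in place of well above background. The median level (40.7%) was 58.1% with median spot signals without background subtraction, 46.7% with dye-normalized signals, 49.6% with normexp (offset 50) and loess on median spot signals without spike-in scaling, where loess centres the ratios by construction, 28.1% without scaling, 35.8% with the median of the spike-in probes, 49.8% with IP required, 37.7% with positive and significant signals, 51.5% in the authors' table, and 38.2% or 43.2% with the scale raised or lowered by 1 standard error, alternatives chosen after seeing the data.

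IP-higher RNAs (5648) numbered 892 without scaling and from 3436 to 7232 with 1 siNC array left out. Sup-higher RNAs (5519) numbered 3494 without background subtraction, 10353 without scaling, 9554 with the median of the spike-in probes and from 1979 to 7649 with 1 siNC array left out. The methods' t-test, which the methods use between groups and which was run here as a one-sample test of the ratio, called 0 and 0 RNAs after Benjamini-Hochberg adjustment; unadjusted, it called 2705 IP-higher and 5032 Sup-higher RNAs at the 0.05 threshold, and 453 and 1756 at a stricter p without the methods' fold threshold, whereas limma called 6599 and 6645 at an unadjusted p under 0.05.

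The correlation of level and Sup signal (0.411) was −0.583 without background subtraction, 0.083 with dye-normalized signals, −0.161 with normexp and loess, −0.0558 with IP required, −0.25 in the authors' table and 0.564 with IP+Sup as abundance. The ASHGV4 difference over the mean levels (−6.18) was 2.11, −3.41, −0.311, −3.85 and −1.9 under the first 5 of these, and −2.69 within bins. For ASHG38SM1 (−6.03) the values were 0.818, −3.61, −0.451, −4.48 and −3.33, and −3.07 within bins. The cause was not tested.

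With 1 array left out, siNC minus knockdown ran from −5.85 to 0.669 for IP detection, −6.88 to −3.43 for the median level, 0.0921 to 0.200 for the correlation, −2.62 to −1.36 for ASHGV4 and −1.86 to −1.02 for ASHG38SM1, with exact permutation adjusted p from 0.0446 to 0.964. Of 230 values of named genes under alternatives, 223 moved by less than the spread between arrays and 7 moved by more. Leaving out 1 of 3 arrays cannot move a mean level by more than this spread, so the outcome of those values was fixed. Of 46 genes, 2 moved by more without background subtraction and 5 in the authors' deposited levels. On the other side of 50% were 8 values of 4 genes, LMO2, LOX, SAA4 and UCHL5, and 0 of these genes were called. Other scalings were not among these alternatives, and KIF20A, called IP-higher, changed sides without scaling.

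The replicate block concerns 2 pairings. Without pairing the fractions of 1 array (no replicate block), 571 RNAs were IP-higher and 223 Sup-higher. For siNC against knockdown, replicate numbers shared by the groups gave correlations of deviations of 0.629, 0.192 and 0.770 with siALKBH5#1 but −0.263, −0.317 and −0.246 with siALKBH5#3, so the numbers were not taken to pair the arrays. With the number as a block, a permutation chosen after seeing the data, the differences were as without it, −4.69 for the median level, with exact adjusted p from 0.463 to 0.815 (smallest exact p 0.037), and no call changed. Signal over background limits levels of dim RNAs, since 14301 RNAs had no IP signal.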
